A study of Homo sapiens with 3 samples.

Results

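The 8 genes described here are 6 metallothionein genes (MT2A, MT1E, MT1X, MT1F, MT1G and MT1M), the transcription factor gene MTF1 and the zinc exporter gene SLC30A1. They were taken by symbol from a table of 51136 genes, and all 8 were found in it. The table holds RNA-seq counts in 3 libraries of PANC-1 cells, a long-established line from a human pancreatic carcinoma, with 1 library per condition. The control library came from cells given no agent, and the labels name no vehicle. The Rg3 library came from cells given 200 μM Ginsenoside Rg3, a ginseng saponin, and the TAM library from cells given 50 μM tamoxifen, a ligand of the oestrogen receptor, each for 24 h. All 3 conditions share the cell line and a medium with serum. The study used Rg3 as an agent against blood vessel growth and TAM as an inhibitor of protein kinase C, and the question here is what each library showed for genes of metal storage, metal sensing and zinc export.

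Metallothioneins are small cysteine-rich proteins that hold zinc and copper and also bind cadmium. MTF1 senses zinc and binds metal response elements in the promoters of metallothionein genes and of SLC30A1, whose product (ZnT1) carries zinc out of the cell across the plasma membrane. Metallothionein genes are also known to respond to glucocorticoids and to oxidants, and most of them lie side by side in 1 cluster on chromosome 16.

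The libraries held 11300766 (control), 12861693 (Rg3) and 11321442 (TAM) counts on genes. Counts were scaled between libraries by the trimmed mean of M values (TMM), and levels are given as CPM, the counts of a gene over the scaled library total. A gene was compared where 1 of 2 libraries had at least 10 counts, and it was called higher or lower where the fold was over 1.5 or under 0.67 and the Benjamini-Hochberg adjusted p of an exact two-sided binomial test on its reads was under 0.05. This test compares 2 libraries and not 2 conditions: no difference has a replicate check, and each interval covers counting error only. Scaling by library totals instead would add 0.14 to every log2 fold change of Rg3 and -0.21 to every one of TAM. Fold changes also followed base composition. Where a library pair had 50 or more counts on a gene, Spearman's rho between log2 fold change and GC content of the transcript was -0.82 for Rg3 (11583 genes) and 0.52 for TAM (11022 genes), and that with transcript length was 0.21 and -0.48. These correlations describe 3 shared libraries. The fold changes of the compared genes are therefore also given after removal of a smooth trend on GC content and length, as a difference from genes of like composition. The cause of the trend was not tested.

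The labelled cell line was checked against markers. All 6 epithelial and ductal markers had reads, with KRT8 at 7817 to 15329 counts and SOX9 at 723 to 996. Of 16 markers of other cell types, 13 had at most 5 counts in each library, and the 5 acinar and islet markers, CD3E and CDH5 were at 0. The other 3 had reads: COL1A1 (734 to 1853 counts), CD68 (426 to 1100) and CD14 (37 to 97). The summed level of the 16 was 224 CPM in control, 103 with Rg3 and 189 with TAM. COL1A1 held 1853 of its 2570 counts in control. The summed level of the 6 epithelial and ductal markers was 2502, 1186 and 2906 CPM, so both sums were lowest in the Rg3 library. The part of either sum in the results was not tested. In bulk RNA, a change in the number of cells that use a gene and a change in RNA per cell cannot be told apart.

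The metallothionein genes are near copies of each other, so their coding sequences are shown first. MT2A, MT1E and MT1X carried most reads of the 6 genes, and their coding sequences (GENCODE 29) are each 186 bases long, with 20 cysteine codons among 61. Capitals mark bases that differ from MT2A.
MT2A: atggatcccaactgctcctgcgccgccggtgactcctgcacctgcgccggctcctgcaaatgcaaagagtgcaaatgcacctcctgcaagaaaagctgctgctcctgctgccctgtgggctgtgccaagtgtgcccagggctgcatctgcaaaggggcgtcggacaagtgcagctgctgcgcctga
MT1E: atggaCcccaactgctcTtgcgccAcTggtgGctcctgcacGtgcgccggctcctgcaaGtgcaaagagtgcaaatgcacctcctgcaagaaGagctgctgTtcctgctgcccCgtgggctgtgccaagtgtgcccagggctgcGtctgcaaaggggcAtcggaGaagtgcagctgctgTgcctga
MT1X: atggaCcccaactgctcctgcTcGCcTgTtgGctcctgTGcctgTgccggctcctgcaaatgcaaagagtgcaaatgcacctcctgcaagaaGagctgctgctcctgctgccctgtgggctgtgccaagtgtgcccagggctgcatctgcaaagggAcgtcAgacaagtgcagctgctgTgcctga

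MT1E and MT1X each differed from MT2A at 14 of these bases (92.5% identity). The longest run that MT1E shared with MT2A was 32 bases, and the longest that MT1X shared with MT2A was 63. Over whole transcripts, 10.6% of the 50-base stretches of MT1E recurred exactly in a transcript of another gene, and 38.7% recurred in another metallothionein within 2 mismatches. MT1M and MT1G, the genes that shared most with MT1E, had at most 8 counts in any library. The pseudogene MT1L had 1046 to 1529 counts, and its nearest metallothionein was MT1E, with 91 of its stretches within 2 mismatches. Whether reads were exchanged between MT1E and MT1L was not tested. For MT2A the shares were 4.88% and 17.4%, and most of these stretches matched the processed pseudogene MT2P1. Of MT1X, 55.8% of the stretches also lay in AC026461.1, an annotated gene that overlaps it on the same strand, and 4.50% were within 2 mismatches of another metallothionein. How the authors' counting placed reads that fit several copies, and whether it used strand, is not given in the sources used here, so values of single metallothionein genes are uncertain to that extent. MTF1 (0.644% exact) and SLC30A1 (0%) have next to no shared stretches, and no exon of any of the 8 genes overlaps an exon on the opposite strand.

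MT2A (chr16:56608199-56609497, GRCh38, + strand) was the most abundant of the 8 genes in each library. Its counts were 3965 in control, 3199 with Rg3 and 4371 with TAM, or 345, 222 and 439 CPM. The Rg3 library was the lowest and the TAM library the highest. Against control, MT2A was lower in the Rg3 library, with a log2 fold change of -0.64 (95% interval -0.70 to -0.57, exact binomial test, Benjamini-Hochberg adjusted p = 9.03e-76). In the TAM library the log2 fold change was 0.35 (0.28 to 0.41), short of the fold limit of 1.5. Scaling by library totals gave -0.50 for Rg3, which ended the call. MT2A is the most GC-rich of the 5 compared genes, at 63.0% of its transcript, and with the trend removed its values were -0.02 for Rg3 and -0.31 for TAM. With the trend taken from the longest transcript of any type they were -0.33 and -0.08, none of the 4 being called.

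MT1E (chr16:56625475-56627112, + strand), of the cadmium-inducible MT1 group, ran the other way. It had 586 counts in control, 891 with Rg3 and 307 with TAM, or 51.0, 61.9 and 30.8 CPM. Here the Rg3 library was the highest and the TAM library the lowest. The log2 fold change was 0.28 (0.13 to 0.43) for Rg3, which was not called, and -0.73 (-0.93 to -0.52) for TAM, which was called lower (exact binomial test, Benjamini-Hochberg adjusted p = 1.97e-12). The values became 0.54 and -1.13 once the trend was removed, and the second was still called.

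MT1X (chr16:56682424-56684196, + strand) is another zinc- and cadmium-inducible member of the MT1 group. It had 215 counts in control, 122 with Rg3 and 228 with TAM, or 18.7, 8.47 and 22.9 CPM. The control and TAM libraries were close together and the Rg3 library was low. MT1X was lower in the Rg3 library by a log2 fold change of -1.14 (-1.48 to -0.82, exact binomial test, Benjamini-Hochberg adjusted p = 4.31e-12), and the value was -0.84 and still called with the trend removed. For TAM it was 0.29 (0.02 to 0.57) and -0.14 with the trend removed, neither of them called. MT1X thus had the largest difference from control of the 5 compared genes in the Rg3 library, and by either choice of transcript it was the one call among them there that held without the trend.

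MT1F, MT1G and MT1M were at the edge of detection and were not compared. MT1F (chr16:56657694-56660698, + strand) had 5, 7 and 3 counts in the control, Rg3 and TAM libraries, and MT1G (chr16:56666731-56668065, - strand) had 8, 3 and 3. MT1M (chr16:56632233-56633986, + strand) had 1 count, in the Rg3 library, and a count of 0 allows up to 0.261 CPM in the control library and 0.301 CPM in the TAM library. Differences of these 3 genes were not detectable at this depth.

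**Figure D1:**
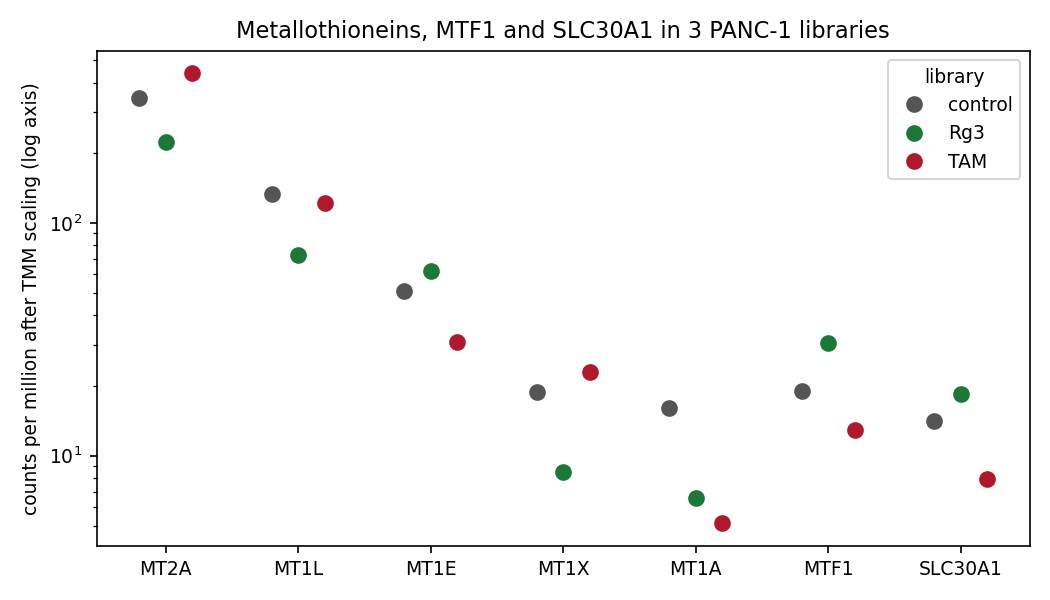
Level of 5 of the 8 genes, and of the metallothionein rows MT1L and MT1A, in each library (points, 1 library each; vertical axis, CPM after TMM scaling, log axis). MT2A stood at 222 to 439 CPM, MT1E was highest in the Rg3 library at 61.9 and lowest in the TAM library at 30.8, and MT1X was lowest in the Rg3 library at 8.47.

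MTF1 (chr1:37809567-37859620, - strand), the metal sensor, had 217 counts in control, 439 with Rg3 and 128 with TAM, or 18.9, 30.5 and 12.9 CPM. The Rg3 library was the highest and the TAM library the lowest, as for MT1E and unlike MT2A and MT1X. MTF1 was higher in the Rg3 library by a log2 fold change of 0.69 (0.45 to 0.93, exact binomial test, Benjamini-Hochberg adjusted p = 1.60e-08). For TAM it was -0.56 (-0.88 to -0.23), a fold of 0.681 just inside the limit of 0.67 and so not called. The values were 0.45 and 0.01 without the trend, and neither was called. Division by library totals gave -0.76 for TAM, which was past the limit.

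SLC30A1 (chr1:211571568-211578742, - strand), the zinc exporter, had 162 counts in control, 265 with Rg3 and 79 with TAM, or 14.1, 18.4 and 7.94 CPM. The order of the libraries was that of MTF1. The log2 fold change was 0.38 (0.10 to 0.67) for Rg3, which was not called, and -0.83 (-1.24 to -0.43) for TAM, which was called lower (exact binomial test, Benjamini-Hochberg adjusted p = 5.82e-05). SLC30A1 is the most AT-rich of the 5 genes, at 38.0% GC, and with the trend removed its value turned to -0.44 (-0.73 to -0.15) for Rg3 and was -0.01 (-0.41 to 0.39) for TAM. The counts of SLC30A1 per count of MTF1 were 0.747 in control, 0.604 with Rg3 and 0.617 with TAM, and the intervals of both changes from control included 0 on the log2 scale (-0.31, -0.68 to 0.07, for Rg3 and -0.27, -0.80 to 0.25, for TAM). Without the trend these changes were -0.89 and -0.02.

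Levels were also divided by the length of 1 annotated transcript per gene (729 bases for MT1E and 538 for MT1X). The control library had 439 CPM per kb of MT2A, 70.0 of MT1E, 34.8 of MT1X, 2.58 of SLC30A1 and 2.37 of MTF1. These values depend on the transcript chosen, and neither base composition nor the placement of shared reads is corrected in them. The order of the first 3 was MT2A, MT1E, MT1X in the control and Rg3 libraries. In the TAM library MT1E and MT1X stood level, at 42.3 and 42.6 CPM per kb, and in the Rg3 library they stood apart, at 84.9 and 15.7. SLC30A1 and MTF1 were close together in each library (3.36 and 3.82 for Rg3, 1.45 and 1.61 for TAM), and with 1 library each there is no spread by which to order them.

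The counts of calls were read against all genes compared. With Rg3, 1 of 5 compared genes was called higher and 2 lower, where 20.5% and 15.8% of the 16487 genes compared were called in these directions. With TAM, 0 were called higher and 2 lower, against 14.0% and 18.4% of 16079 genes. MT1X and MT2A were above control in the TAM library without being called, with folds of 1.22 and 1.27. By the exact binomial test their Benjamini-Hochberg adjusted p was 0.064 and 7.23e-27, so MT2A fell short by the fold alone. With the trend removed both stood below control, at log2 fold changes of -0.14 and -0.31. The other uncalled genes fell short by the fold alone: MT1E (1.21) and SLC30A1 (1.30) for Rg3, and MTF1 (0.681) for TAM. Without the trend these stood at 0.54, -0.44 and 0.01. After removal of the trend, 1 gene was called lower in each treated library (MT1X for Rg3 and MT1E for TAM), where 6.78% and 11.7% of genes were, and 0 were called higher, where 4.76% and 9.67% were. An exact test in edgeR that took cultures to vary with a coefficient of 0.2 kept 0 of the 5 calls from control (Benjamini-Hochberg adjusted p of 0.192 to 0.412). The share of all genes called by that test was not computed, so this loss is not particular to the 5 genes.

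**Figure D2:**
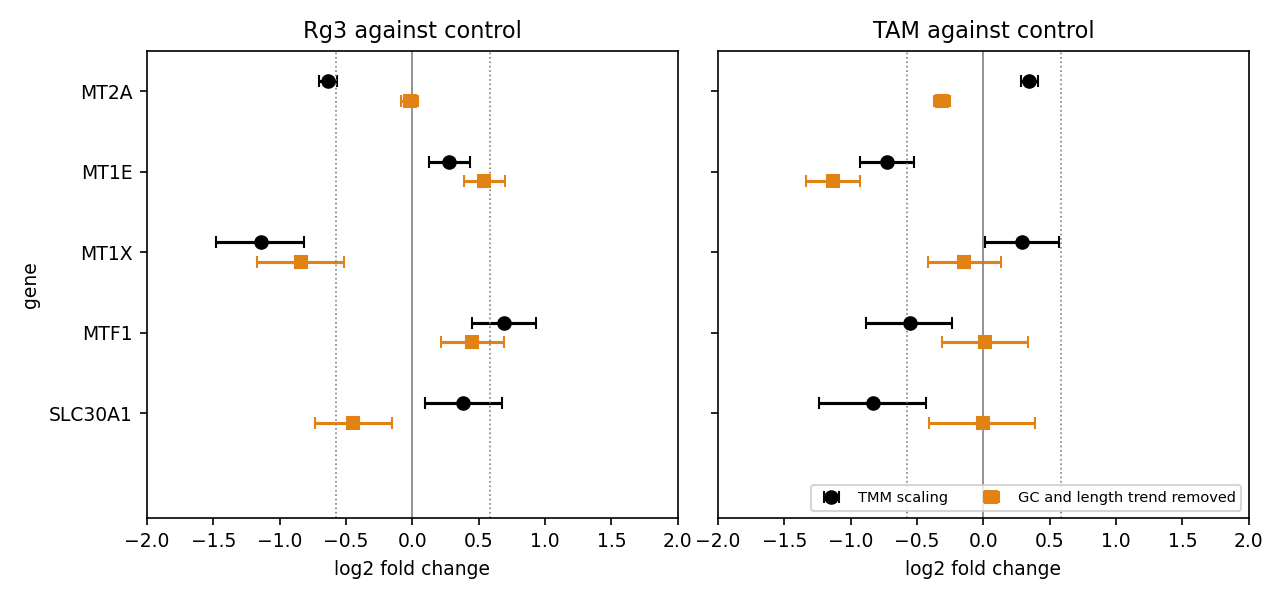
Log2 fold change of the 5 compared genes (horizontal axis) in the Rg3 and TAM libraries against control, after TMM scaling (black circles) and with the GC and length trend removed (orange squares), with 95% intervals of counting error and dotted lines at the fold limits of 1.5 and 0.67. MT1X for Rg3 and MT1E for TAM stayed past the limits by both, while MT2A and SLC30A1 moved with the trend.

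**Figure D3:**
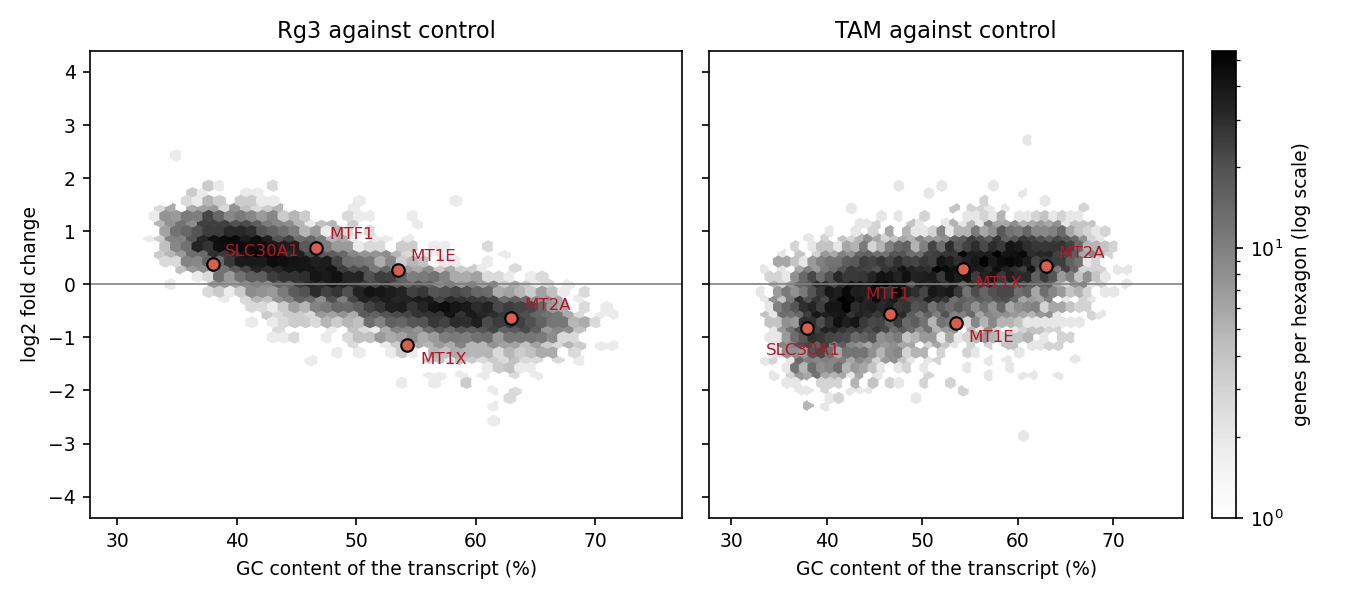
Log2 fold change after TMM scaling against the GC content of the transcript in percent, for genes with at least 50 counts in 1 of the 2 libraries (hexagons, darker for more genes, log scale) and the 5 compared genes (red points). MT2A and SLC30A1 lay at opposite ends of the GC axis, MT1E lay on the upper side of genes of like GC content for Rg3 and on the lower side for TAM, and MT1X lay on the lower side for Rg3.

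Set against each other, the Rg3 and TAM libraries differed in all 5 compared genes, where 30.8% of 16493 genes were called higher and 27.2% lower. The doses differ (200 and 50 μM), and this comparison reuses the libraries of the comparisons above. MT1E, MTF1 and SLC30A1 were higher in the Rg3 library, by log2 fold changes of 1.00 (0.82 to 1.20), 1.25 (0.96 to 1.54) and 1.21 (0.85 to 1.59). MT1X and MT2A were lower there, by -1.44 (-1.76 to -1.11) and -0.98 (-1.05 to -0.92). Of these, MT1E (1.66) and MT1X (-0.71) were still called with the trend removed, and MTF1 (0.41), SLC30A1 (-0.45) and MT2A (0.28) were not. The background share was then 14.6% higher and 15.6% lower. MT1X, MTF1 and SLC30A1 held with the assumed variation of 0.2.

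The sum over the 6 metallothionein genes does not depend on how reads were split among them. It was 4779 counts in control, 4223 with Rg3 and 4912 with TAM. The log2 fold change of the sum was -0.51 (-0.57 to -0.45) for Rg3 and 0.25 (0.19 to 0.30) for TAM, values with no test. Within these 6 genes both values rested on MT2A. Without it the sums were 814, 1024 and 541 counts, and the values were 0.004 (-0.13 to 0.14) and -0.38 (-0.54 to -0.22). Over all 21 metallothionein genes and pseudogenes of the table, MT2A included, they were -0.62 and 0.12. The most-read rows outside the 6, MT1L, MT2P1 and MT1A, stood at -0.87, -1.16 and -1.28 for Rg3. For TAM these rows stood at -0.14, 0.12 and -1.64. The trend was fitted for 3 of the 6 genes (MT2A, MT1E and MT1X, with 4766, 4212 and 4906 counts together). Without it the value of their sum was 0.05 for Rg3 and -0.37 for TAM, so that the direction depends on the processing.

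A ratio of 2 genes within a library does not depend on the scaling between libraries. The ratios given here, that of SLC30A1 to MTF1 included, were chosen after the values were seen. There were 0.148 counts of MT1E per count of MT2A in control, 0.279 with Rg3 and 0.0702 with TAM. Against control, the ratio changed by 0.91 on the log2 scale for Rg3 (0.75 to 1.08) and by -1.07 for TAM (-1.29 to -0.86), and the Rg3 and TAM libraries differed by 1.99 (1.79 to 2.19). Removal of the trend gave changes of 0.56, -0.82 and 1.38, and with the longest transcript of any type 0.89, -1.05 and 1.93. The direction of each was the same by all of these. The ratio of MT1X to MT2A was 0.0542, 0.0381 and 0.0522 in the 3 libraries, with changes of -0.51 (-0.85 to -0.17) for Rg3 and -0.06 (-0.34 to 0.23) for TAM.

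The reads of the whole family show the same uneven make-up. Metallothionein rows took 6955 of the counts in control, 5670 with Rg3 and 6550 with TAM, or 0.0615%, 0.0441% and 0.0579%. MT2A took 57.0% of these in the control library (Wilson 95% interval 55.8 to 58.2), 56.4% in the Rg3 library (55.1 to 57.7) and 66.7% in the TAM library (65.6 to 67.9). MT1E took 8.43% (7.80 to 9.10), 15.7% (14.8 to 16.7) and 4.69% (4.20 to 5.23). Its share was thus highest in the Rg3 library and lowest in the TAM library, with no overlap of the intervals, which cover counting error only. The second largest share, 22.0% in control and 18.4% with either agent, fell on MT1L, an annotated pseudogene of the cluster.

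**Figure D4:**
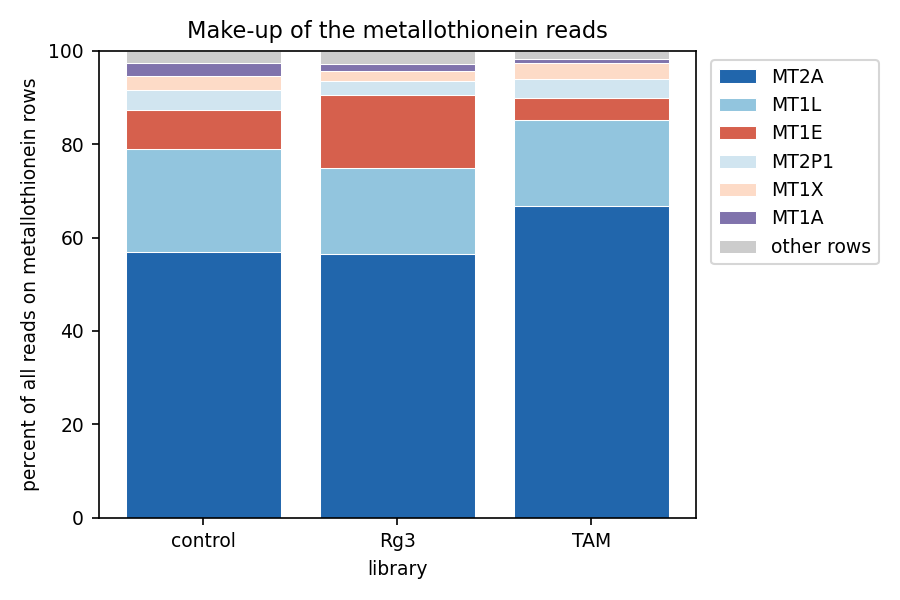
Share of each gene among all reads on metallothionein rows in the 3 libraries (stacked bars, percent, 1 library per bar). MT1E took 15.7% with Rg3 and 4.69% with TAM, and MT2A took 56.4% and 66.7%.

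Among the other metallothioneins, 14 of the 15 listed symbols were in the table, and 5 could be compared with control. For Rg3, 0 of these 5 were called higher and 3 lower (median log2 fold change -0.87, against 0.04 over all genes compared), where 15.8% of all genes were called lower. For TAM 0 were called higher and 1 lower (-0.53, against -0.02), where 18.4% were called lower. Without the trend 2 were called lower for Rg3 and 3 for TAM, against 6.78% and 11.7% of all genes. Beside MT1A, those for TAM were the processed pseudogenes MT1XP1 (45 to 27 counts) and MT1P3 (100 to 68 counts). Neither was called for TAM with the trend left in. MT1A (chr16:56638666-56640087, + strand), a coding gene of the cluster, had 184 counts in control, 95 with Rg3 and 51 with TAM. Both treated libraries were low, with log2 fold changes of -1.28 (-1.65 to -0.92) and -1.64 (-2.12 to -1.19), and with the trend removed the values were -1.22 and -1.89 and still called. MT1L had 1529, 1046 and 1205 counts. It was lower in the Rg3 library, by -0.87 and with the trend removed by -0.60, both called, and its value for TAM was -0.14, or -0.55 with the trend removed, neither called. Of the 50-base stretches, 36.3% in MT1A, 32.6% in MT1L, 71.5% in MT1XP1 and 87.5% in MT1P3 lie within 2 mismatches of another metallothionein. Part of the reads of these rows may therefore belong to another copy, which was not tested.

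The promoters of the genes were examined for the metal response element, to which MTF1 binds, by its core letters TGCACNC or TGCGCNC on either strand, and for the antioxidant response element by TGACNNNGC. RefSeq windows (GRCh38.p14) from 250 bases before to 50 bases after the gene start matched 4 of the 8 genes by symbol: MT2A, MT1X, SLC30A1 and MTF1. These starts differ from those of the gene positions given above, which are from GENCODE 29. By those positions the SLC30A1 window lies wholly before the gene and the MT2A window wholly inside it. The windows are printed because they show how densely the cores lie around the RefSeq starts of MT2A and MT1X. Capitals mark the metal response element cores.
MT2A, chr16:56608334-56608633, + strand: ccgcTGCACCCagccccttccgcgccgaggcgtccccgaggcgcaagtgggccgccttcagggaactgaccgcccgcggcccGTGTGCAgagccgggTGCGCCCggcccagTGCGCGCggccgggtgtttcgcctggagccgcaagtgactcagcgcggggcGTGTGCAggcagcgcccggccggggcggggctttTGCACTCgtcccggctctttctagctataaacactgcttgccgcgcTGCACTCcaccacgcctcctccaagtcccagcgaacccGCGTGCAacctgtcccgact
MT1X, chr16:56682220-56682519, + strand: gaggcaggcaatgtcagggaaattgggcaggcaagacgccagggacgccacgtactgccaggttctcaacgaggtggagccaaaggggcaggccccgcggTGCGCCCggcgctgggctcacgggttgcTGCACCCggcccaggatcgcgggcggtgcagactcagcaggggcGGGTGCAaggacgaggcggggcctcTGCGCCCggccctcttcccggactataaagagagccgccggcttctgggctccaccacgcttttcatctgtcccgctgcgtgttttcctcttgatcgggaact
SLC30A1, chr1:211579112-211579411, - strand: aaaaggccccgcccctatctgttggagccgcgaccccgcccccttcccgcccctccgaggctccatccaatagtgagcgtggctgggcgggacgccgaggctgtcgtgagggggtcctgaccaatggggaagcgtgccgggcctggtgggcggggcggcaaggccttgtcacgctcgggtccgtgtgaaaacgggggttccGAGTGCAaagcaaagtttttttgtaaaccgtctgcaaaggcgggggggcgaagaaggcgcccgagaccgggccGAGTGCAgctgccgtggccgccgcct

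The MT2A window held 8 such cores, the MT1X window 4 and the SLC30A1 window 2, and none overlapped. Of 35116 promoter windows of that length, 29.6% held at least 1 core, 8.60% at least 2, 0.601% at least 4 and 0.0740% at least 6. MT2A, MT1X and SLC30A1 each held 1 antioxidant core, as did 13.3% of the windows at least once. The MTF1 window held 0 of either, which says only that these letters are not in it. A match of letters is a description and shows no binding.

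**Figure D5:**
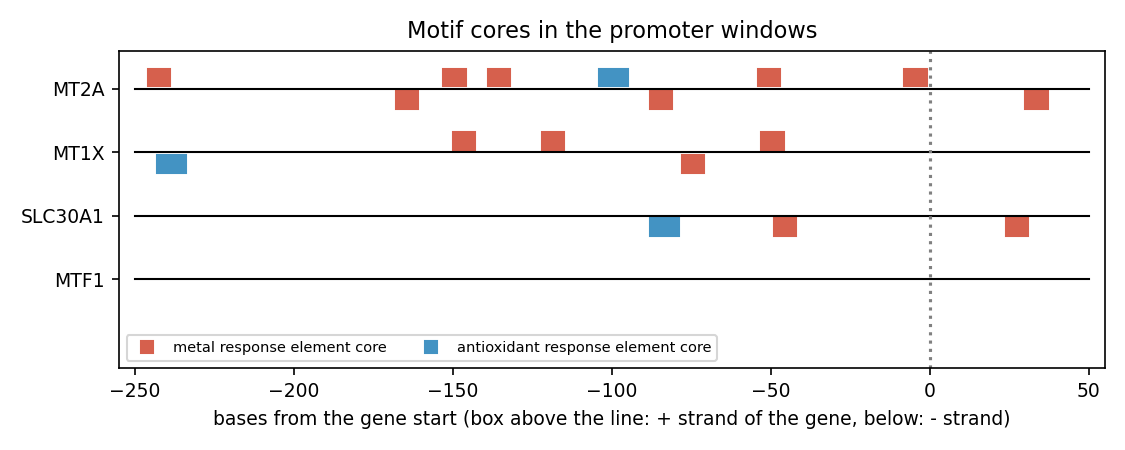
Position of metal response element cores (red) and antioxidant response element cores (blue) in the promoter windows of 4 genes, in bases from the RefSeq gene start (dotted line). Boxes above the line are on the gene's own strand and those below it on the other. The MT2A window held 8 metal response element cores, MT1X 4, SLC30A1 2 and MTF1 0.

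The other ZnT transporters, which move zinc out of the cytosol into vesicles and organelles or out of the cell, were read beside SLC30A1. Of 9 in the table, 3 had at most 3 counts in each library and 5 were compared. All 5 were called higher in the Rg3 library, where 20.5% of all genes were (median log2 fold change 0.95, against 0.04). SLC30A7, a Golgi transporter, went from 42 to 134 counts (1.35, and 0.45 with the trend removed), SLC30A9 from 162 to 425 (1.06 and 0.29), SLC30A6, which works with SLC30A5 in the secretory pathway, from 261 to 632 (0.95 and 0.11), and SLC30A4 from 42 to 97 (0.88 and 0.16). SLC30A1, at 0.38, was below each of these 4. These calls did not hold without the trend: 0 of the 5 were then called, by the exact binomial test with Benjamini-Hochberg adjustment, where 4.76% of all genes were called higher, and their median was 0.16. In the TAM library 0 were called higher and 1 lower, against 14.0% and 18.4% of all genes: SLC30A4 with 42 and 16 counts (-1.19). That call was lost without the trend (-0.30), where SLC30A7 was called higher instead (1.10, from 0.06). The median was -0.38, and it was 0.44 with the trend removed.

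ZIP transporters bring zinc into the cytosol. Of 14, 11 were compared: 3 were called higher and 1 lower in the Rg3 library (median -0.22), where 20.5% and 15.8% of all genes were, and 4 higher and 2 lower in the TAM library (0.40), where 14.0% and 18.4% were. SLC39A4, the intestinal zinc importer, had 137 counts in control, 62 with Rg3 and 198 with TAM, with log2 fold changes of -1.47 and 0.74. The first was still called with the trend removed (-0.77) and the second was not (0.11), nor was it with library totals (0.53). SLC39A10 fell from 345 to 132 counts in the TAM library (-1.18, and -0.35 with the trend removed, not called). SLC39A14, which also carries iron and manganese, fell there from 1204 to 635 counts (-0.72, and -0.45 with the trend removed, not called). SLC39A1 rose there from 3728 to 4972 counts (0.62, and 0.22 with the trend removed, not called). The 3 called higher with Rg3 were SLC39A8 (17 to 54 counts, 1.34), SLC39A6 (440 to 903, 0.71) and SLC39A9 (442 to 843, 0.60). With the trend removed these stood at 0.95, 0.09 and 0.09, not called. After trend removal, 0 ZIP genes were called higher and 1 lower for Rg3, and 1 higher and 0 lower for TAM, against 4.76% and 6.78%, and 9.67% and 11.7%, of all genes.

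Of 12 copper handling genes compared, 3 were called higher and 2 lower in the Rg3 library, and 2 higher and 1 lower in the TAM library, against 20.5% and 15.8%, and 14.0% and 18.4%, of all genes. The copper importer gene SLC31A1 went from 247 to 530 counts with Rg3 (0.77, and 0.32 with the trend removed, not called). ATP7A, the copper exporter, went from 170 counts to 356 with Rg3 and to 60 with TAM (0.74 and -1.30), the direction of MTF1 and SLC30A1 in both. Without the trend, ATP7A stood at -0.03 and -0.29. ATOX1, the copper chaperone that serves it, went from 481 to 749 counts with TAM (0.85), and it was still called with the trend removed (1.19). With the trend removed, 0 copper genes were called for Rg3, where 4.76% of all genes were called higher and 6.78% lower. For TAM, 4 were then called higher and 0 lower, where 9.67% and 11.7% of all genes were.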

How the data were processed

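PANC-1 cells were measured by RNA-seq (Ion Proton) in 3 libraries, control, Rg3 and TAM, grouped by the sample labels. Per the paper's methods, the authors assessed reads with FAST-QC and aligned them with TopHat, and the submitters' processing notes name the build GRCh38. They deposited raw read counts per gene symbol, without normalization. The counting tool, annotation, strand setting and treatment of multiply mapped reads are not given in the sources used here. All columns belonged to a mapped library, and no row lacked a name.

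From the deposited counts, TMM factors (1.02 control, 1.12 Rg3, 0.879 TAM) were computed with edgeR 4.0.16 in R 4.3.3, and folds, 95% Clopper-Pearson intervals and exact two-sided binomial tests with SciPy 1.17.1 in Python 3.11.15. For a fold, a count below 3 was set to 3. Limma, as in the methods, needs replicates and could not be fitted. GC content and length came from the longest protein-coding GENCODE 29 transcript, else the longest, and the trend was removed by loess (span 0.3). Alternatives were library totals, DESeq2 1.42.0 size factors, a minimum of 1 or 50 counts, the fold alone, an assumed variation between cultures (coefficient of 0.2 or 0.4), the trend removal and other sums. The steps were tested on simulated data.

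The 8 genes and the lists of other metallothioneins, ZnT, ZIP, copper, metal and oxidant stress and glucocorticoid genes were chosen with earlier results of these data known. Of each list, up to 4 called genes with at least 50 counts and the largest change per comparison could be named, besides the 5 genes nearest in pattern to the metallothionein sum. MT1XP1 and MT1P3 are named outside this rule. The labels do not say how many cultures stand behind a library, so the p-values carry no spread between cultures.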

Additional observations from a re-analysis of the deposited data

Results flagged for a closer look

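Reads were counted on MT2P1, a processed pseudogene of MT2A on chromosome 4 (chr4:68376323-68376505, GRCh38, + strand) that is not among the 6 genes or the listed other metallothioneins. It is counted in the sum over all 21 metallothionein rows and in the family shares. Its counts were 288 in control, 162 with Rg3 and 272 with TAM, above the 3 counts that a count of 0 allows. Of its 50-base stretches, 91.8% lie within 2 mismatches of another metallothionein, MT2A foremost, and 15.7% recur exactly in another gene. Its log2 fold changes were -1.16 for Rg3 and 0.12 for TAM, beside -0.64 and 0.35 for MT2A, and with the trend removed -0.58 and -0.47, beside -0.02 and -0.31. Whether these reads came from MT2A was not tested.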

How the results depend on the processing

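No paired analysis was possible because there is a single library per condition, and for the same reason no library could be left out. Size factors of DESeq2, a minimum of 1 or 50 counts and the fold alone left each member's call and each count of members called on its side of the limits. The trend removal with the longest transcript of any type, and the ratios, were chosen after the data were seen. Of the 10 calls over the 8 genes and 3 comparisons, 4 held with the trend removed by either choice of transcript: MT1X for Rg3, MT1E for TAM, and both between Rg3 and TAM. An assumed variation of 0.2 kept 3 (MT1X, MTF1 and SLC30A1 between Rg3 and TAM) and 0.4 kept 0. Over all genes the shares called also fell with the trend removed, for Rg3 from 20.5% to 4.76% higher and from 15.8% to 6.78% lower. Shares under an assumed variation were not computed, so counts under it are no result about the 8 genes or the lists in particular. The cause of the changed calls was not tested, other than that the assumed variation widens the error by its construction.

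Members called. For Rg3 against control the counts were 0 higher and 0 lower with an assumed variation of 0.2 or 0.4, 1 lower with library totals, and 0 higher and 1 lower with the trend removed by either choice. For TAM against control they were 3 lower with library totals, 0 lower with an assumed variation of 0.2 or 0.4 and 1 lower with the trend removed by either choice. For Rg3 against TAM they were 2 higher and 1 lower with 0.2, 0 and 0 with 0.4, and 1 and 1 with the trend removed by either choice.

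Zinc and copper lists and other metallothioneins together. For Rg3, 11 of 33 compared were called higher and 6 lower, where 20.5% and 15.8% of all genes were (4.76% and 6.78% with the trend removed). Library totals gave 3 lower, an assumed variation of 0.2 or 0.4 gave 0 and 0, and trend removal gave 0 higher (1 with the longest transcript of any type) and 3 lower by either choice. For TAM, 6 of 33 were called higher and 5 lower, where 14.0% and 18.4% of all genes were (9.67% and 11.7% with the trend removed). Library totals gave 1 higher and 7 lower, 0.2 gave 0 higher and 1 lower, and 0.4 gave 0 and 0. Trend removal gave 3 lower by either choice. Between Rg3 and TAM, 10 of 32 were called higher and 9 lower, where 30.8% and 27.2% of all genes were (14.6% and 15.6% with the trend removed). Library totals gave 14 higher and 5 lower, 0.2 gave 6 higher and 4 lower, and 0.4 gave 0 and 0. Trend removal gave 2 higher by either choice. It gave 6 lower, and 3 lower with the longest transcript of any type. Further shifts with other settings are not listed.

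Log2 fold change of the summed metallothionein counts. Library totals gave -0.37 for Rg3, 0.037 for TAM and -0.40 between them. All metallothionein rows gave -0.62 and 0.12. With MT2A left out of the 6 genes, the values were 0.0044, -0.38 and 0.39. With the trend removed, over the 3 genes that had a trend value, they were 0.047, -0.37 and 0.44, and with the longest transcript of any type -0.20, -0.17 and -0.038.

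Values of the 8 genes, of list genes called and named by the rule, of the 5 genes nearest in pattern and of ratios that changed sign with the trend removed, the second value of a pair being that with the longest transcript of any type. For Rg3 these were SLC30A1 (-0.44, -0.42), ATP7A (-0.032, -0.025), CIC (0.17, 0.17), COX11 (-0.11), EEF2 (0.027, 0.038) and SCO2 (0.0091, 0.0052). For TAM they were MT1X (-0.14, -0.13), MT2A (-0.31, -0.077), MTF1 (0.013), COTL1 (-0.27), EEF2 (-0.15, -0.18), SCO2 (-0.0012) and the ratio of MT1X to MT2A (0.17). Between Rg3 and TAM they were MT2A (0.28), SLC30A1 (-0.45, -0.37), CCS (0.43, 0.42), GCLM (-0.20, -0.10), PER1 (0.015, 0.054), SCO2 (0.00019), SLC30A6 (-0.26, -0.17), SLC30A7 (-0.66, -0.59), SLC30A9 (-0.21, -0.14), SLC39A10 (-0.095, -0.0052), SLC39A6 (-0.023) and the ratio of MT1L to MT2A (-0.36). Other list genes are not included here: CCS, for example, went from -0.62 to 0.011 for Rg3. MT2P1 turned from 0.12 to -0.47 for TAM. With library totals, calls against control were also lost for SGK1 (-0.44) and SCO2 (-0.53) with Rg3, and for HSPA1A (0.45), PER1 (0.57), SCO2 (0.48), SLC39A1 (0.41) and SLC39A4 (0.53) with TAM. DESeq2 size factors ended that of GCLC with TAM (-0.56).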

Other observations

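Genes known to respond to metals and oxidants, several of them NRF2 targets, were read beside the metallothioneins. Of 11 compared, 4 were called higher and 0 lower in the Rg3 library, where 20.5% of all genes compared were called higher and 15.8% lower. The median log2 fold change of the 11 was 0.19, against 0.04 over all genes compared. SLC7A11, the cystine importer that supplies glutathione synthesis, had 43 counts in control, 312 with Rg3 and 27 with TAM. TXNRD1, cytosolic thioredoxin reductase, had 1575, 4826 and 1224. The log2 fold changes for Rg3 were 2.53 (2.07 to 3.03) and 1.29 (1.21 to 1.37), and with the trend removed 1.61 and 0.90, both still called. The glutathione synthesis genes GCLM (94 to 268 counts, 1.18) and GCLC (202 to 423 counts, 0.74) were called higher with Rg3 as well, but not with the trend removed (0.33 and 0.31). MT2A, MT1X and MT1E, from the same library, stood at -0.64, -1.14 and 0.28, and with the trend removed at -0.02, -0.84 and 0.54. In the TAM library 2 genes were called higher and 1 lower, against 14.0% and 18.4% of all genes: C11orf31, an older symbol of the selenoprotein gene SELENOH (414 to 771 counts, 1.10, with no value for the trend), HSPA1A, a heat shock gene with a near-identical copy (2468 to 3378 counts, 0.66), and GCLC (202 to 116 counts, -0.59). Without the trend, 0 of 10 were called, by the exact binomial test with Benjamini-Hochberg adjustment. Of all genes, 9.67% were then called higher and 11.7% lower.

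Of 6 glucocorticoid-responsive genes compared, 2 were called higher and 1 lower in the Rg3 library, where 20.5% and 15.8% of all genes were. In the TAM library 1 was called higher and 2 lower, where 14.0% and 18.4% were. After removal of the trend, 1 was called higher and 1 lower for Rg3, where 4.76% and 6.78% of all genes were. For TAM 0 were then called higher and 1 lower, where 9.67% and 11.7% were. TSC22D3 (GILZ) had 285 counts in control, 801 with Rg3 and 329 with TAM. Its log2 fold change for Rg3 was 1.16 (0.97 to 1.36), and 1.39 with the trend removed, both called. SGK1, a kinase gene of the same list, fell with Rg3 from 819 to 688 counts (-0.58, and -0.83 with the trend removed, both called, but -0.44 and not called with library totals). FKBP5, a chaperone gene of the glucocorticoid receptor, went from 303 to 116 counts with TAM (-1.18), and stood at -0.38 with the trend removed, not called.

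Of 8421 genes with at least 100 counts in each library, EEF2, GSK3A, CIC, SLC25A15 and COTL1 had the pair of log2 fold changes nearest to that of the metallothionein sum (-0.51 for Rg3 and 0.25 for TAM), at distances of 0.006 to 0.016 over the 3 libraries. They were picked for this closeness, which is therefore no result. With the trend removed they stood, in this order, at 0.03, -0.32, 0.17, -0.46 and -0.07 for Rg3. For TAM they then stood at -0.15, 0.16, 0.22, 0.02 and -0.27. EEF2, translation elongation factor 2, had 28250, 24879 and 29093 counts in the control, Rg3 and TAM libraries.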
